A study of Mus musculus with 6 samples.

Results

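Ush1c, Calml4, Rsph1, Elf3 and Vtcn1, 5 genes better known from epithelia and ciliated cells than from muscle, were followed in the TA muscle of WT mice and of NS-DADm mice. They were taken by symbol from the 709 genes of the authors' deposited table, and were selected on their low normalized counts in WT muscle and their higher counts in NS-DADm muscle, as genes of the brush border, the cilium or the epithelium. The NS-DADm against WT difference of these 5 genes was therefore the reason for choosing them, and it is described here without a test. The table holds only genes that the authors called different between these same libraries, and genes outside it have no value here.

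The TA, or tibialis anterior, is a mostly fast-twitch muscle of the lower leg. RNA-seq was done on this muscle from 3 WT and 3 NS-DADm mice, all labelled C57BL/6 and 21 weeks old, with 1 library per mouse as the study describes. The knock-in mutations of NS-DADm mice are tyrosine-to-alanine substitutions in the corepressors NCoR (gene Ncor1) and SMRT. They lie in the deacetylase-activating domain of each protein, and together they switch off the enzymatic activity of HDAC3. The mutations are present in every cell of the body, so a difference in muscle RNA cannot be assigned to the muscle fibers alone. The sex of the sequenced mice is not in the labels. The paper's methods name male mice wherever nothing else is stated.

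The 5 genes have different known roles, although Ush1c and Calml4 belong to the same adhesion complex of the brush border. Microvilli of the intestinal brush border are held together at their tips by protocadherins that are anchored by the PDZ scaffold harmonin, the product of Ush1c, and the same scaffold organises the stereocilia of inner ear hair cells, where its loss causes Usher syndrome. Calml4 encodes a calmodulin-like protein that in human intestinal cells acts as a light chain of the myosin of this adhesion complex. Rsph1 encodes a protein of the radial spoke head, which sits in the axoneme of motile cilia and sperm flagella. Elf3 is an ETS-family transcription factor of epithelial cells, and Vtcn1 encodes B7-H4, a B7-family surface protein that restrains T cells. Adult muscle fibers have neither a brush border nor motile cilia.

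The libraries gave between 1047804 and 1411470 reads over the 709 listed genes, a part of each library and not its depth. Values are normalized counts, that is, reads divided by 1 size factor per library, and 1 read was worth 0.905 to 1.21 normalized counts. Transcripts of the muscle fiber dominated the table, with Ttn, the giant sarcomere protein titin, at 262488 ± 14123 (SD, n = 3) normalized counts in WT. Of 11 marker genes of muscle fibers 3 were listed, Ttn and Actn3 with higher and Myl1 with lower values in NS-DADm. These 3 genes keep the same ranks in every library. Quantile normalization therefore gives each of them equal values in all libraries and cannot test their differences. The summed level of the 3 genes, mostly Ttn, was 452311 to 474591 in WT and 572855 to 671598 in NS-DADm. In bulk muscle, more cells of a type and more RNA per cell cannot be told apart.

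Ush1c lies on chr7:46195350-46238503 of GRCm38 and was measured at 21.7, 30.9 and 21.1 normalized counts in the WT libraries and at 90.8, 91.2 and 96.6 in the NS-DADm libraries. The NS-DADm values lay close together and far above the highest WT value. The WT mean was 24.6 ± 5.50 and the NS-DADm mean 92.9 ± 3.19 normalized counts (SD, n = 3 each), a ratio of 3.77. The 80 WT reads and 261 NS-DADm reads gave a 95% counting interval of 2.91 to 4.89 for this ratio (exact binomial, counting error only, since reads are not independent molecules).

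Calml4, whose protein works next to harmonin in the brush border, lies on chr9:62858080-62875921. Its values were 3.62, 2.73 and 5.76 normalized counts in WT and 22.2, 17.3 and 31.4 in NS-DADm. The groups did not overlap, but the WT values rested on 4, 3 and 6 reads. The means were 23.6 ± 7.16 (SD, n = 3) and 4.04 ± 1.56 (SD, n = 3), a ratio of 5.85 with a counting interval of 3.14 to 11.4. That this RNA was high in the same mice as Ush1c follows from the choice of both genes.

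Rsph1 was the most abundant of the 5 genes and lies on chr17:31255019-31277383. It was measured at 31.7, 22.8 and 25.0 normalized counts in WT and at 110.9, 100.9 and 137.6 in NS-DADm. Each NS-DADm value was at least 3.18 times the highest WT value. The means were 116 ± 19.0 (SD, n = 3) and 26.5 ± 4.65 (SD, n = 3), a ratio of 4.40 with a counting interval of 3.41 to 5.57.

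Elf3, on chr1:135253575-135258568, had 6.34, 3.64 and 3.84 normalized counts in WT and 16.9, 24.0 and 33.8 in NS-DADm. The WT libraries held 7, 4 and 4 reads of this transcription factor and the NS-DADm libraries 16, 25 and 28. The means were 24.9 ± 8.48 (SD, n = 3) and 4.61 ± 1.50 (SD, n = 3), a ratio of 5.41 with a counting interval of 3.00 to 9.97.

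Vtcn1, on chr3:100825459-100896922, was nearest to absent in WT muscle, at 0, 2.73 and 2.88 normalized counts (0, 3 and 3 reads). In the WT library without a read, 3 reads would have been 2.72 normalized counts, and the exact 95% Poisson counting interval reached 3.34. A level up to 3.34 is therefore not excluded there. The NS-DADm libraries gave 15.8, 15.4 and 39.8 normalized counts (15, 16 and 33 reads), and the highest of them stood well apart from the other two. The means were 23.7 ± 14.0 (SD, n = 3) and 1.87 ± 1.62 (SD, n = 3), a ratio of 12.7 with a wide counting interval of 5.35 to 34.7. The ratio was 8.34 without NS-DADm replicate 3 and 8.44 without WT replicate 1, and reached 17.3 without WT replicate 3.

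**Figure D1:**
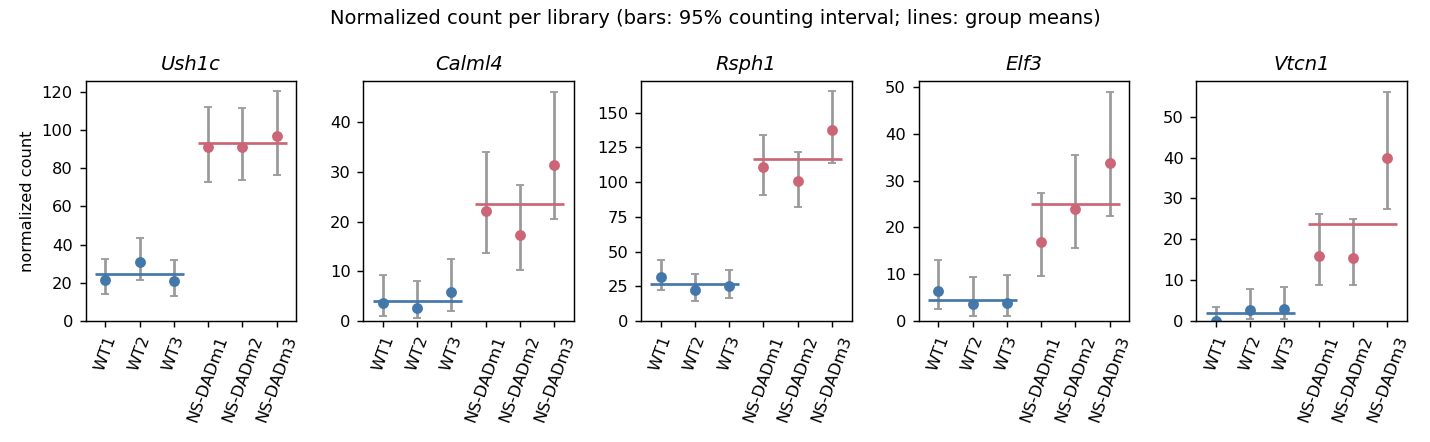
Normalized counts (y axis, from 0) of the 5 genes in each of the 6 libraries (x axis), with exact 95% Poisson counting intervals as bars and group means as lines. In every panel the 3 NS-DADm libraries lie above the 3 WT libraries, and Vtcn1 is highest in NS-DADm replicate 3 at 39.8.

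On the log2(normalized count + 1) scale, limma fitted over the whole table gave differences (NS-DADm minus WT) of 1.89 (standard error 0.23) for Ush1c, 2.29 (0.44) for Calml4, 2.10 (0.23) for Rsph1, 2.19 (0.43) for Elf3 and 3.20 (0.66) for Vtcn1. The added 1 pulls in the differences of the 3 genes with few WT reads. All 5 genes had a ratio of at least 3, as did 7.05% of the listed genes, and the lowest NS-DADm library exceeded the highest WT library in all 5, as in 49.5% of the listed genes. Since the genes were chosen for this contrast, nothing is read from these counts. By ratio of group means, Vtcn1, Calml4, Elf3, Rsph1 and Ush1c ranked 3, 11, 14, 19 and 30 among the 361 higher genes, whose median ratio was 1.62. By WT level, Vtcn1, Calml4 and Elf3 ranked 3, 7 and 10 from the bottom of the 709 genes, and Ush1c and Rsph1 44 and 51. Low WT values and high ratios go together by construction in this table, because a gene near absent in WT had to be higher in NS-DADm to be called: all 13 listed genes with a WT mean under 5 were higher, by at least 4.22-fold.

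**Figure D2:**
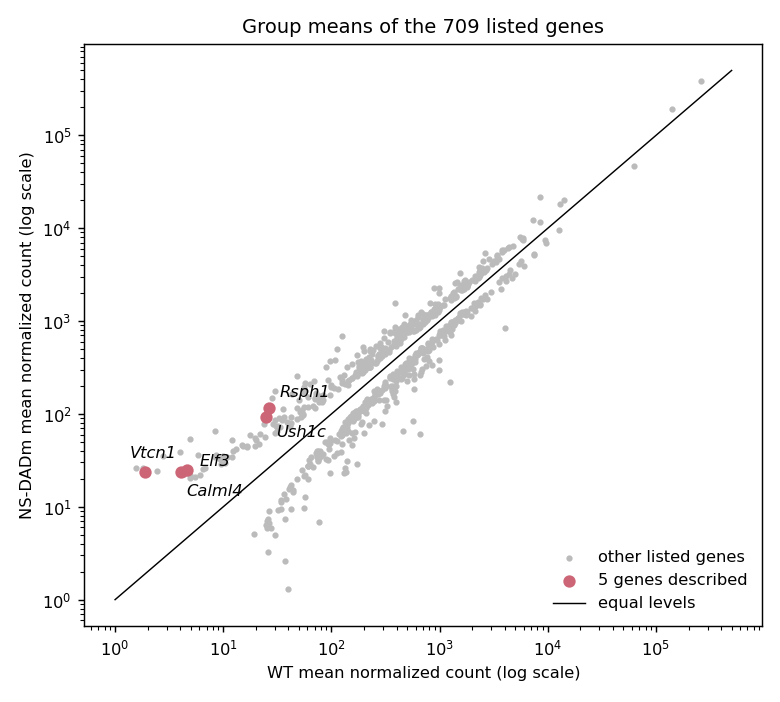
Mean normalized count in NS-DADm (y axis, log scale) against WT (x axis, log scale) for the 709 listed genes, with the 5 genes in red and the line of equal levels in black. Vtcn1, Calml4 and Elf3 sit at the low end of the WT axis with NS-DADm means of 23.7, 23.6 and 24.9, while Rsph1 and Ush1c reach 116 and 92.9.

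Levels of different genes were compared per kilobase of annotated exon (GENCODE M21, all transcripts of a gene joined). In NS-DADm, Rsph1 stood highest at 84.9 ± 13.8 (SD, n = 3) normalized counts per kilobase, followed by Ush1c at 24.1 ± 0.83 (SD, n = 3). Elf3, Vtcn1 and Calml4 followed at 11.2 ± 3.83, 9.03 ± 5.33 and 6.48 ± 1.96 (SD, n = 3 each), and their order is within the spread of the libraries. In WT the first 2 places were the same, with Rsph1 at 19.3 ± 3.39 and Ush1c at 6.39 ± 1.43 normalized counts per kilobase (SD, n = 3 each). Elf3, Calml4 and Vtcn1, at 2.08 ± 0.68, 1.11 ± 0.43 and 0.71 ± 0.62 (SD, n = 3 each), followed, and the ranges of Calml4 and Vtcn1 overlapped.

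The 5 genes differed in how much the NS-DADm mice varied. The coefficient of variation over the 3 NS-DADm libraries was 3.44% for Ush1c, below the 10.7% that read counting alone would give, and 16.3% for Rsph1, against 9.62% from counting. For Calml4 and Elf3 it was 30.3% and 34.1%, against 21.5% and 20.9% from counting. Vtcn1 varied most, at 59.1% against 21.7% from counting. In WT, Ush1c and Rsph1 varied by 22.4% and 17.6%, close to the 19.4% and 18.7% from counting.

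In all 5 genes NS-DADm replicate 3 had the highest value, as it did in 100 of the 361 higher genes (27.7%). Its value was 2.55 times the mean of the other 2 NS-DADm libraries for Vtcn1, 1.65 times for Elf3, 1.59 times for Calml4, 1.30 times for Rsph1 and 1.06 times for Ush1c, while the median over the higher genes was 0.926. Genes of a similar WT level were set beside these values. Over the 13 listed genes with a WT mean under 5, which include Vtcn1, Calml4 and Elf3, the median was 1.50, and replicate 3 was highest in 8. Both figures are partly set by these 3 genes themselves, and the band was not summarised without them. Over the 24 higher genes with a WT mean of 5 to 20 the median was 0.884, and replicate 3 was highest in 9. Over the 17 higher genes with a WT mean of 20 to 35, which include Ush1c and Rsph1, the median was 0.744. Replicate 3 was highest in 4 of these 17. In Ush1c the excess of replicate 3 was smaller than the counting error of a single library. That library also had the fewest reads over the listed genes, 1047804, and the part of this in the result was not tested. Without NS-DADm replicate 3 the ratios of group means were 3.70 for Ush1c, 4.89 for Calml4, 4.0 for Rsph1, 4.44 for Elf3 and 8.34 for Vtcn1.

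Marker genes of other cells were looked up beside these results. Of 42 genes typical of epithelia in general, such as the cell adhesion genes Epcam and Cdh1 and the keratin genes Krt8 and Krt18, 0 were listed, so that no level can be given for them. Of 11 genes of plasma and B cells, 2 were listed and higher in limma, the antibody chains Igha (adjusted p = 0.00125 over the 709 genes) and Igkc (adjusted p = 7.80e-04). Their summed level was 0.960 to 12.7 normalized counts in WT and 42.3 to 102.6 in NS-DADm, and Igha was at 0 in WT replicates 2 and 3. Igha was measured at 19.0, 18.2 and 41.0 normalized counts in NS-DADm replicates 1 to 3 and Igkc at 31.7, 24.0 and 61.6. Both stood highest in NS-DADm replicate 3, as Vtcn1 did, at 2.20 and 2.21 times the mean of the other 2 libraries. Igha, Igkc and Vtcn1 are all among the 13 listed genes with a WT mean under 5. Replicate 3 was highest in 8 of the 13, and the median of this ratio over them was 1.50. In WT, where Igha had 6, 0 and 0 reads and Vtcn1 0, 3 and 3, the reads were too few to compare patterns. Itgae, the integrin of T cells that lodge in epithelia and of some dendritic cells, was listed as 1 of 5 T cell genes, and its levels of 16.9, 22.1 and 22.9 in NS-DADm and 7.24, 4.55 and 2.88 in WT differed 4.22-fold (limma adjusted p = 0.00192). Of 6 macrophage genes Mrc1, a mannose receptor, was listed, at 125.9, 120.2 and 144.1 normalized counts in WT and 275.6, 295.8 and 224.5 in NS-DADm. It was 2.04-fold higher (limma adjusted p = 3.32e-04), and NS-DADm replicate 3 was its lowest NS-DADm library. Of the 5 adipocyte, 4 endothelial, 4 fibroblast, 3 satellite cell and 3 Schwann cell genes looked up, 0 were listed. The part of such cells in the levels of the 5 genes was not tested.

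**Figure D3:**
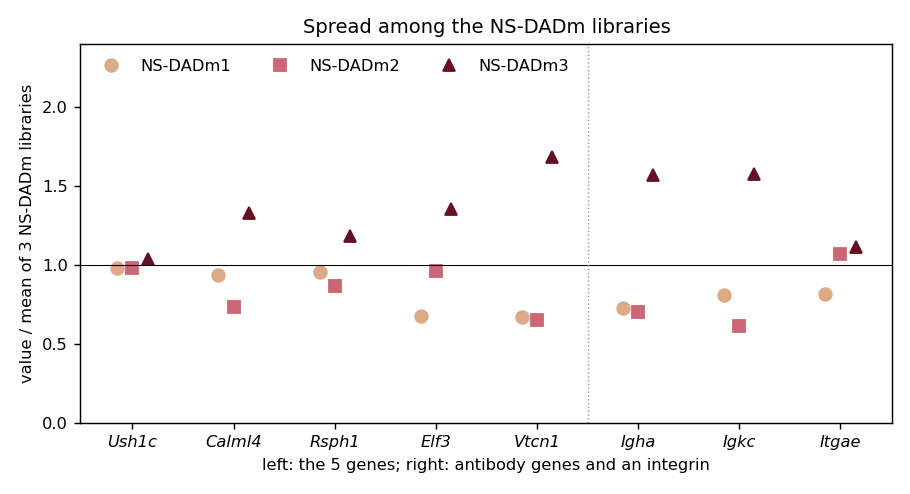
Value of each gene in NS-DADm replicates 1, 2 and 3 divided by the mean of the 3 (y axis), for the 5 genes on the left and for Igha, Igkc and Itgae on the right of the dotted line. Vtcn1, Igha and Igkc stand out with replicate 3 at 2.20 times or more the mean of the other 2 libraries, whereas the 3 values of Ush1c nearly coincide. Vtcn1, Igha and Igkc are among the 13 listed genes with a WT mean under 5. Replicate 3 was highest in 8 of the 13.

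The table holds 644 (2.93%) of 21951 protein-coding genes of the annotation, and the share among genes that muscle expresses is not known here, so the counts of listed partners below are descriptions. Of 34 brush border and Usher genes, 3 were listed, namely Ush1c, Calml4 and Cib2. Cib2, a calcium-binding protein that hair cells need for mechanotransduction, was at 1489 ± 152 normalized counts in WT and fell to 1090 ± 12.4 in NS-DADm (SD, n = 3 each), in limma a log2 difference of -0.45 (standard error 0.10, adjusted p = 0.00228). The myosin of the complex (Myo7b) and its protocadherins (Cdhr2 and Cdhr5) have no value here. Of 87 genes of radial spokes and motile cilia, 2 were listed and moved in opposite directions. Rsph3b, a radial spoke protein, was measured at 58.0, 83.7 and 78.7 normalized counts in WT and at 42.2, 38.4 and 38.6 in NS-DADm, a fall of 1.85-fold (limma adjusted p = 0.00357). Mouse has a close copy of it, Rsph3a, and how reads were split between them is uncertain. Of 44 genes of primary cilium transport only Arl3, a small GTPase that releases cargo in cilia, was listed, 1.30-fold higher (limma adjusted p = 0.00473).

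Elf3 was the only listed gene among 26 ETS factors, and Vtcn1 the only one among 16 genes of the B7 and CD28 families, which include the receptors of T cells. Of 24 genes of the calmodulin family and related EF-hand proteins, Calml4 and Calm3 were listed. Calm3, 1 of the genes that encode calmodulin itself, was at 4673 ± 218 normalized counts in WT and fell to 2937 ± 60.7 in NS-DADm (SD, n = 3 each), with a log2 difference of -0.67 (standard error 0.09, limma adjusted p = 1.43e-04). Over all listed genes, 361 (50.9%) were called higher and 348 (49.1%) lower by limma, so a call in the table says nothing further about these lists.

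The 5 genes lie on 5 different chromosomes (7, 9, 17, 1 and 3), and none of them is on chromosome 11, which carries Ncor1. The position of the SMRT gene, which is also mutated, was not looked up. Of the 5 genes, 2 had a listed neighbour within 100 kb that was also higher. Abcc8, the sulfonylurea receptor subunit of ATP-sensitive potassium channels, lies 15.3 kb from Ush1c and was measured at 67.9, 73.7 and 92.2 normalized counts in WT and at 141.5, 183.5 and 146.0 in NS-DADm. It was 2.01-fold higher (limma adjusted p = 8.61e-04). Kcnc1, a voltage-gated potassium channel gene 158 kb from Ush1c, went the other way and was 1.52-fold lower (limma adjusted p = 0.00283). Lmod1, a leiomodin that nucleates actin filaments in smooth muscle, lies 66.2 kb from Elf3. Its values were 93.3, 108.3 and 67.2 normalized counts in WT and 373.9, 307.4 and 274.0 in NS-DADm, a 3.55-fold rise (limma adjusted p = 4.37e-05).

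Further from Elf3, Gm37677 and Csrp1 were 2.63-fold and 1.41-fold higher and Cyb5r1 1.43-fold lower. Smad3, which relays TGF-beta signals, lies 771 kb from Calml4 and was 1.65-fold higher, and Btbd9, 679 kb from Rsph1, was 1.43-fold lower. For Gm37677, Csrp1, Cyb5r1, Smad3 and Btbd9 the limma adjusted p was 0.00428 or less. Every listed gene was called by limma, so these calls say nothing further about the neighbours. No listed gene lies within 1 Mb of Vtcn1. Among the other 355 higher genes with a position, 43 (12.1%) had a higher listed gene within 100 kb, against 2 of the 5 genes here. Of the protein-coding genes within 1 Mb, 2 of 77 were listed around Ush1c, 1 of 17 around Calml4, 1 of 25 around Rsph1, 3 of 36 around Elf3 and 0 of 14 around Vtcn1. Transcripts on the opposite strand overlap Ush1c, Calml4, Rsph1 and Elf3 in the annotation. None of these is listed, and without a stated use of strand in the counting, reads from the overlaps cannot be assigned.

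**Figure D4:**
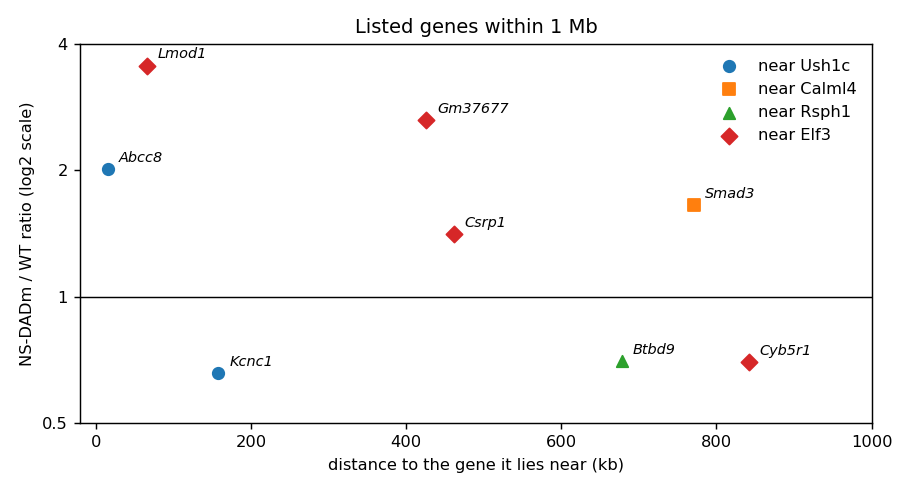
Ratio of NS-DADm to WT group means (y axis, log2 scale) of the 8 listed genes within 1 Mb of Ush1c, Calml4, Rsph1 or Elf3, against their distance in kilobases (x axis). The nearest neighbours, Abcc8 at 15.3 kb and Lmod1 at 66.2 kb, are higher by 2.01-fold and 3.55-fold, and 3 of the 8 are lower.

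The 250 bases before the start sites are shown to give the sequence context of the genes. RefSeq entries (GRCm38) matched 4 of the 5 symbols, with Rsph1 the exception. Capitals mark GGAA, the core of ETS factor sites, on either strand (TTCC when read on the strand shown). The windows are chr7:46238491-46238740 (minus strand) for Ush1c, chr9:62857854-62858103 (plus strand) for Calml4, chr1:135258473-135258722 (minus strand) for Elf3 and chr3:100825209-100825458 (plus strand) for Vtcn1. GENCODE places earlier starts of Ush1c, Calml4 and Elf3 inside their windows.
Ush1c: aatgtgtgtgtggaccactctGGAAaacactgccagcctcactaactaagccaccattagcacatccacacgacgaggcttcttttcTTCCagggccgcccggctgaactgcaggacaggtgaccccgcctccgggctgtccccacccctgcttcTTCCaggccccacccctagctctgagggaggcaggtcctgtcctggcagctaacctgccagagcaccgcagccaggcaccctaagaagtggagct
Calml4: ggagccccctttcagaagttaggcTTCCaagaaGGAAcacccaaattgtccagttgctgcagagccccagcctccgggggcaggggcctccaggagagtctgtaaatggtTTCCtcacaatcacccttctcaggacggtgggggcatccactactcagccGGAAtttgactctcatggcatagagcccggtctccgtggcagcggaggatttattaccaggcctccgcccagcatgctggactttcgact
Elf3: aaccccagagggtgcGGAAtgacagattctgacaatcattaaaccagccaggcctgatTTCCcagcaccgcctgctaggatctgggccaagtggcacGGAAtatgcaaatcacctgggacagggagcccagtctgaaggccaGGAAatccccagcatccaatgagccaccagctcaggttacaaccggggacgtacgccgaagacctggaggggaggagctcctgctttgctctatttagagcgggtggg
Vtcn1: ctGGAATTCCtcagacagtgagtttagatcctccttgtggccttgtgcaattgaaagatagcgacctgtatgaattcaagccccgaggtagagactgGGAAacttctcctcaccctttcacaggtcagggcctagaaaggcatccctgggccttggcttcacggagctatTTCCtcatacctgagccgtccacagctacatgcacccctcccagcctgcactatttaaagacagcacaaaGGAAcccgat

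The core GGAA occurred 3 times before Ush1c, 4 times before Calml4 and Elf3 and 5 times before Vtcn1, with matches on both strands in each. It is a common string, found in 93.5% of 32851 promoter windows of the same length, with a median of 3 matches. CANNTG, the E-box read by muscle regulatory factors, was present in all 4 windows and in 66.2% of all windows. AGGTCA, the half-site of nuclear receptors, to which NCoR binds, was found only before Vtcn1, 129 bases from the start, and in 14.0% of all windows. GTTGCC, a half-site of RFX factors of ciliated cells, and the TATA box TATAAA were in none of the 4 windows, against 10.4% and 12.4% of all windows. The string CTATTTA, singled out after the sequences had been read, lay 30 bases before the start of Vtcn1 and 18 bases before that of Elf3, and occurred in 2.63% of all windows. In each count both strands were searched, and a match is a description of these letters only.

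The listed genes with the most similar pattern over the 6 libraries were sought by the root-mean-square difference of log2 profiles, each centred on its mean. Rsph1 and Elf3 were close to each other, at 0.231 on the log2 scale, with Rsph1 the nearest of all listed genes to Elf3. Zfp385a, a zinc finger gene that was 5.43-fold higher, was nearest to both Rsph1 (0.174) and Calml4 (0.242). Tbc1d4, which acts in glucose uptake, was among the 3 nearest to Rsph1 (0.192) and Calml4 (0.390), and Itgae among those of Elf3 (0.274). Ush1c was nearest to Asf1b, a histone chaperone gene (0.172), Wdfy1 (0.179) and Igfals (0.184). Vtcn1 had no close match: the nearest profile, of the unnamed transcript 5330406M23Rik, differed by 0.703, followed by Calml4 at 0.822 and Gm12185 at 0.838. Likeness here depends on the size of the genotype difference, for which all these genes were selected, and on the spread within each group. The share of each was not tested. Vtcn1 had a log2 difference of 3.20, and its 3 nearest profiles had 2.14, 2.29 and 2.82. Its WT values rest on 0, 3 and 3 reads.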

How the data were processed

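RNA-seq of TA muscles from 3 WT and 3 NS-DADm mice was used, and genotypes came from the sample labels. Per the paper's methods reads were aligned to GRCm38 with STAR, while the submitters' processing notes name TopHat2 (2.1.0) and HTSeq with DESeq2 (1.8.2), so the aligner is unsettled. The release of the gene annotation is likewise not given in the sources used here. For each gene and library the authors' deposited table gives a normalized count, a signal that is never negative. The authors' deposited adjusted p-values were under 0.05 for all 709 genes and were used only to find this filter. Deposited fold changes, p-values and group means were not used. The reads behind each value were found by dividing by the smallest unit of its library, which gave whole numbers for 100% of values at a tolerance of 0.01.

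The genotypes were compared on log2(normalized count + 1) by limma 3.58.1 (R 4.3.3), two-sided and with a mean-variance trend, with Benjamini-Hochberg adjustment over the 709 genes and no filter on low values. The step was tested on simulated data with a fixed spread and mostly unchanged genes. That setting lacks the selection on this contrast, so it cannot vouch for the calls in this table. Every gene had been selected on these libraries, so p-values are not independent evidence. They set the difference between 3 and 3 mice against a spread estimated from these selected genes only. An exact permutation test of 1 gene could not go below p = 0.1. The 5 genes and all gene lists were chosen with earlier results of these data known. Other genes are named if they are on a list, lie within 1 Mb of one of the 5 genes or are among the 3 most similar profiles of one of them. Positions are from GENCODE M21 (706 of 709 identifiers matched), counting intervals from scipy 1.17.1, and promoter windows from RefSeq. Some items are not reported here.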

Additional observations from a re-analysis of the deposited data

How the results depend on the processing

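The log2 differences of Ush1c, Calml4, Rsph1, Elf3 and Vtcn1 kept their direction under every alternative run. With a pseudocount of 5 in place of 1 those of Calml4, Elf3 and Vtcn1 shrank to 1.65, 1.61 and 1.99, since their WT means are below 5. With 1 library left out at a time the differences were 1.80 to 2.06 for Ush1c, 2.08 to 2.53 for Calml4, 1.97 to 2.23 for Rsph1, 1.95 to 2.43 for Elf3 and 2.56 to 3.54 for Vtcn1, and 358 to 361 higher and 345 to 348 lower genes. With at least 50 normalized counts required, 318 and 308 genes were called, and Calml4, Elf3 and Vtcn1 had no value. Quantile normalization moved the median difference of all listed genes from 0.38 to 0.12, called 335 and 338 genes and gave 1.96 for Ush1c, 1.94 for Calml4, 2.19 for Rsph1, 1.84 for Elf3 and 2.54 for Vtcn1. The replicate numbers are not known to pair the mice. Correlations of same-numbered deviations across genes were -0.149, 0.148 and 0.0502, and with so few mice they neither show nor exclude pairing. With the replicate block 361 higher and 348 lower genes were called, and the 5 differences were 1.89, 2.29, 2.10, 2.19 and 3.20. A further median-of-ratios factor and limma without a trend also called 361 and 348. The edgeR and DESeq2 fits were planned but not run. They need raw counts, and the reads recovered here by whole division did not pass an automated check of low values, of which this table of called genes holds few. The read counts and counting intervals rest on that division. Part of this stability follows from the selection of the genes on the same libraries. With 0 to 7 WT reads per library, the WT levels of Calml4, Elf3 and Vtcn1 are set by read counting.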
